A study of Homo sapiens with 6 samples.

Results

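REEP1, BRI3BP, QSER1, MEOX1, NT5DC2, ABLIM1, EEIG2 and GET1 are 8 genes picked for large decreases in SNU-449 cells labelled as overexpressing USP48, out of 19775 genes measured. SNU-449 is an established line of human hepatocellular carcinoma, and USP48 is a protease that removes ubiquitin from proteins. Probe sets (groups of short probes that read the same transcript) were taken where the platform annotation named exactly 1 of these symbols, which gave 15 probe sets of 54675. They were compared on 3 arrays of cells with the empty vector (genotype Ctrl) and 3 arrays of cells labelled USP48 OE, called USP48-labelled below. Per the labels, a lentivirus named Lenti-USP48 was used with the reagent HiTransG A, and stable cells were selected with puromycin. The titles call both groups transfected, and no time or clone is given for either. The labels do not say whether the 3 replicates of a group came from separate cultures, so the spread between them may be technical. The genes were chosen by the difference between the group means of their deposited values on these 6 arrays, so their levels and differences are a description with no test.

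The genes belong to different processes. REEP1 bends the membrane of the endoplasmic reticulum (ER), the cell's network for making membrane and secreted proteins, and its loss causes a hereditary spastic paraplegia. GET1 is, with CAMLG, the ER receptor that inserts tail-anchored proteins, which carry their membrane segment at the very end of the chain. BRI3BP is a membrane protein named for binding BRI3. QSER1 works with the demethylase TET1 to keep DNA methylation away from developmental promoters, and MEOX1 is a homeobox transcription factor of the somites. NT5DC2 carries a nucleotidase domain, ABLIM1 links LIM domains to actin filaments, and EEIG2 is the paralog of EEIG1, a protein induced by oestrogen.

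The stretches before the start sites are shown for a reader who may want to see what precedes the genes. The genes were picked for their decreases on these arrays, and whether they share a cause was not tested. RefSeq start sites (GRCh38.p14) were matched for 7 of the 8 genes, with 15 starts in all, and 4 genes had 1 start each. The 250 bases before each of those starts are printed 5′ to 3′ on the gene's strand, with GC boxes (GGGCGG) and CCAAT boxes (CCAAT) in capitals on either strand.
BRI3BP, chr12:124993395-124993644, plus strand: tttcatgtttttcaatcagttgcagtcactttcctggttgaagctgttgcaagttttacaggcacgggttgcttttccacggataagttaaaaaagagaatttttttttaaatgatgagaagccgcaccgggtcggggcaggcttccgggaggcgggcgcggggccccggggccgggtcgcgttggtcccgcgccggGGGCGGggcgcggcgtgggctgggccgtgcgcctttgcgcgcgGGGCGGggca
QSER1, chr11:32892561-32892810, plus strand: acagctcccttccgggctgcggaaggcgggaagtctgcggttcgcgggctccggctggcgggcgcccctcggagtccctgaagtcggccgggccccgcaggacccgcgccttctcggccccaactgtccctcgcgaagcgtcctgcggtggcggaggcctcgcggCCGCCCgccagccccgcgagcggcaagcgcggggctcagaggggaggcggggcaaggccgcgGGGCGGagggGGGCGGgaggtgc
EEIG2, chr1:108559850-108560099, plus strand: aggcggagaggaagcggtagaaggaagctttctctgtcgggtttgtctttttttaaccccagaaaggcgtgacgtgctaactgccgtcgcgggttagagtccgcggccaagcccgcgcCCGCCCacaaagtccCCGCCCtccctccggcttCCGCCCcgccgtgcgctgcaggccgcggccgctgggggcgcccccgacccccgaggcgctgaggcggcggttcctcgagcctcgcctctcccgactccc
NT5DC2, chr3:52535028-52535277, minus strand: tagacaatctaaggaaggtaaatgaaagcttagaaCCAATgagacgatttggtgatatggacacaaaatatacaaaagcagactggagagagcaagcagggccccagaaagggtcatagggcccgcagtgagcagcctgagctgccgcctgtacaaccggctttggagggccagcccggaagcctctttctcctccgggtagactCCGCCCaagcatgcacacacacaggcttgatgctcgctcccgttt

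All 4 stretches held a GC box, as did 42.6% of 35114 promoters of the same length, and that of NT5DC2 alone held a CCAAT box, against 32.0% of promoters. Over all 15 starts, most of them not printed, 7 held a GC box and 4 a CCAAT box. The marked matches did not overlap one another. The stretches differed in base composition. QSER1 had 78.8% G and C with 35 CpG pairs and EEIG2 had 70% with 31, while BRI3BP had 61.6% with 26 and NT5DC2 53.6% with 9. The median promoter had 58% G and C and 11 CpG pairs. None of the 4 held a TATA box (TATAAA), an AP-1 site (TGANTCA), a cAMP response element (TGACGTCA), an E-box (CACGTG), an ETS site (CCGGAAGT), an E2F site (TTTNNCGC), an interferon-stimulated response element core or a GAS element (TTCNNNGAA), searched on both strands. The shares of all promoters holding these were 10.7%, 6.57%, 1.65%, 6.35%, 3.42%, 5.92%, 3.02% and 6.57%. Of all 15 starts, 2 held a TATA box, 1 an AP-1 site and 1 a GAS element, and 0 held any of the others. A missing match says only that these letters are not in this window. REEP1, ABLIM1 and GET1 had 2, 6 and 3 annotated starts, and the array does not tell which was in use. MEOX1 is not shown.

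Some facts of the series bear on every value below. Of 5 USP48 probe sets, limma called 0 higher and 2 lower in the USP48-labelled arrays. At an unadjusted p under 0.05 there was 1 higher, and 0 were higher with an intensity trend and a robust prior. Where these probe sets lie relative to the introduced USP48 sequence is not given, so the count does not show whether the transgene was expressed. For this reason each group carries the name its label gives. The hybridization controls, labelled RNAs added before hybridization, averaged 9.79 ± 0.04 and 10.09 ± 0.10 on the log2 scale (SD, n = 3 arrays each; exact permutation p = 0.1, the smallest that 3 against 3 allow). The 5′ minus 3′ difference of GAPDH, which falls as RNA degrades, was −0.32, −0.37 and −0.44 in the empty vector arrays and −0.51, −0.45 and −1.31 in the USP48-labelled arrays (exact permutation p = 0.1). USP48-labelled replicate 3 had the lowest value. It was also lowest for the same difference of ACTB, but there the groups overlapped, at −3.26, −3.42 and −3.70 against −3.88, −3.44 and −4.14 (exact permutation p = 0.2). Of 8 hepatocyte markers, 7 were measured, and 5 of these, ALB, APOA1, APOB, SERPINA1 and FGB, lay below the median of every array, while TTR lay above it on every array and AFP on some. Of 5 epithelial markers, KRT8, KRT18 and EPCAM lay above the median of every array and KRT19 and CDH1 below it, and all 4 mesenchymal markers lay above it. Of 4 measured leukocyte markers, 0 were called, 3 lay below the median of every array, and the summed level ran from 11.95 to 12.5 in the empty vector arrays and 12.2 to 13.1 in the USP48-labelled arrays. EPCAM, CDH1, VIM, CDH2 and the endothelial marker CDH5 were called lower and FN1 higher, and the part of these in the results below was not tested.

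Values are log2 RMA values as deposited, and differences are the USP48-labelled mean minus the empty vector mean. The brightest probe set of each of the 8 genes lay between −2.59 and −2.12, with a median of −2.20, which without the dim MEOX1 corresponds to 4.35-fold to 6.04-fold lower. The median of all 19775 genes was 0.05. In the ranking from which the genes were taken, they held 8 of the 12 lowest places. GET1 at −2.12 was the last inside it, and RAB4A at −2.11 came just outside. The differences of all 8 brightest probe sets lay past −2, a 4-fold decrease where the values are not dim, as did those of 0.091% of all genes. Of the 15 probe sets, 9 lay past −2, as did 0.125% of all probe sets, and 10 past −1, as did 2.32%. The groups did not overlap, with the USP48-labelled arrays lower, in 12 of the 15, against 19.4% of all probe sets, and none lay apart the other way, against 18.8%. Nothing is read from these counts, since the same difference chose the genes. The ranking also held only genes called by limma whose groups did not overlap and whose higher mean lay above the median gene. Fewer cells with a transcript and less of it per cell cannot be told apart in such samples.

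**Figure D1:**
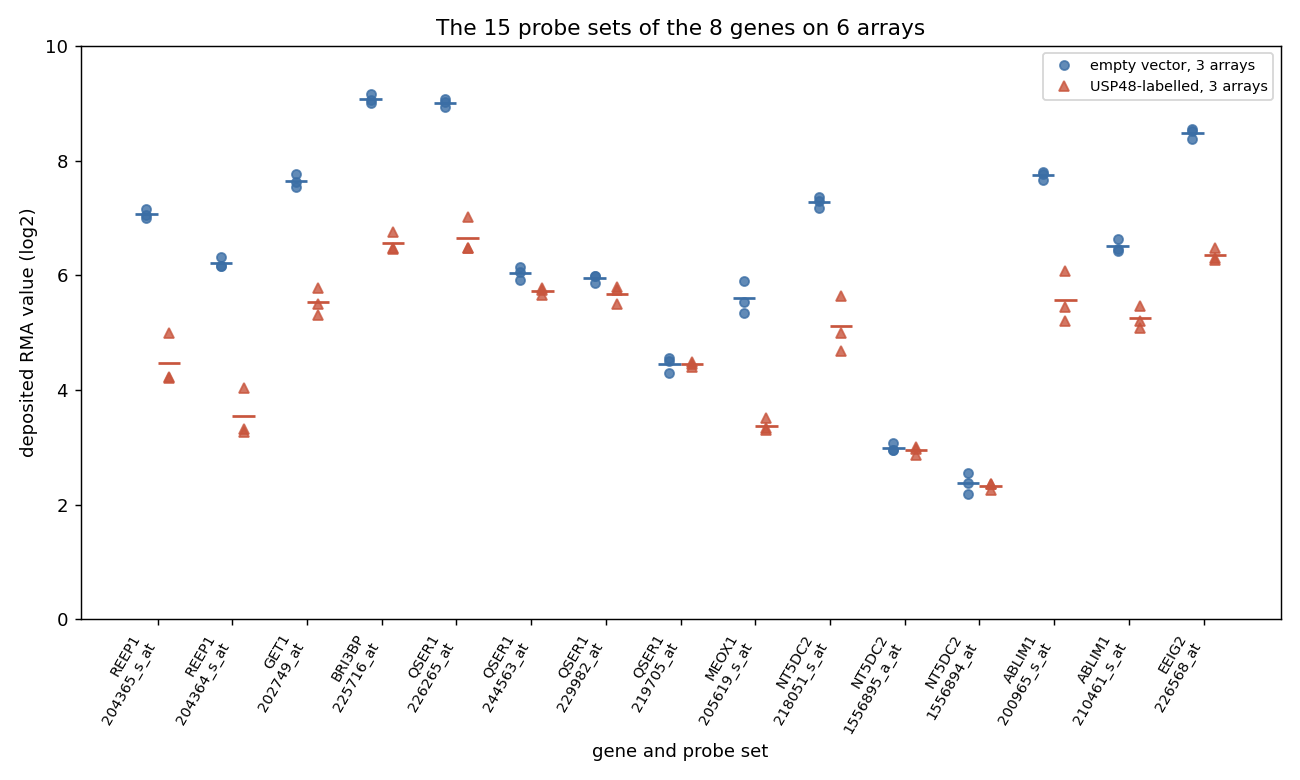
Deposited log2 RMA values (vertical axis) of the 15 probe sets of the 8 genes (horizontal axis) on 3 empty vector arrays (circles) and 3 USP48-labelled arrays (triangles), with group means as lines. The groups lie apart in 12 probe sets and overlap in 3, which are 1 of QSER1 and 2 of NT5DC2.

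REEP1 had 2 probe sets, and both were lowered alike. On 204365_s_at the empty vector arrays read 7.16, 7.05 and 7.00, and the USP48-labelled arrays 4.23, 4.21 and 4.99. USP48-labelled replicate 3 was the highest of its group and still 2.01 below the lowest empty vector array. The difference was −2.59 with a standard error of 0.18, 6.04-fold lower. On 204364_s_at the arrays read 6.31, 6.16 and 6.16 against 3.31, 3.27 and 4.03, a difference of −2.67. The lower 2 of these USP48-labelled values lay below the median of their array, where detection against background was not analysed here. REEP1 was the member with the largest decrease among the brightest probe sets.

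GET1 was read by 1 probe set, 202749_at. The empty vector arrays were at 7.77, 7.53 and 7.63 and the USP48-labelled arrays at 5.30, 5.50 and 5.77. All 3 USP48-labelled arrays lay at least 1.76 below the empty vector arrays, and replicate 3 was again the highest of them. The difference was −2.12 (SE 0.13), 4.35-fold lower.

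BRI3BP was also read by 1 probe set of its own, 225716_at, with 3 close values in each group. The empty vector arrays were at 9.06, 9.01 and 9.16, and the USP48-labelled arrays at 6.46, 6.48 and 6.75. The gap between the groups, 2.26, was the widest of the 8 brightest probe sets, and the difference was −2.52 (SE 0.11), 5.72-fold lower. A further probe set, 231810_at, names BRI3BP together with the long noncoding RNA THRIL, so it is not counted among the 15. It read 8.89, 8.79 and 8.89 against 6.49, 6.33 and 6.67, a difference of −2.36, and cannot be given to either gene.

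QSER1 had 4 probe sets that did not move alike. The brightest, 226265_at, read 9.02, 8.93 and 9.08 in the empty vector arrays and 6.47, 6.47 and 7.01 in the USP48-labelled arrays, a difference of −2.36 (SE 0.14), 5.14-fold lower. The groups lay 1.92 apart, and the USP48-labelled replicate 3 was the highest of its group. The other 3 probe sets changed little. 244563_at went from a mean of 6.04 ± 0.11 to 5.73 ± 0.07 (SD, n = 3 each), a difference of −0.31, and 229982_at from 5.95 ± 0.07 to 5.67 ± 0.16, a difference of −0.27. Both were lower in every USP48-labelled array, by gaps of 0.14 and 0.08. On 219705_at the groups overlapped, at 4.56, 4.29 and 4.51 against 4.41, 4.48 and 4.45, and the difference was −0.01. The mean of the 4 probe sets gave −0.74, so the large decrease of QSER1 rests on 1 of 4 probe sets.

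MEOX1 was read by 1 probe set, 205619_s_at. The empty vector arrays were at 5.54, 5.90 and 5.35 and the USP48-labelled arrays at 3.30, 3.51 and 3.33. It differed from the other 7 genes in its spread: its empty vector SD of 0.28 was the largest of the 8, and USP48-labelled replicate 2, not 3, was highest in its group. The difference was −2.22 (SE 0.14). All 3 USP48-labelled values lay below the median of their array, so the size of this difference depends on how dim values were treated and no fold is given.

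NT5DC2 had 3 probe sets, and only the bright one was lowered. 218051_s_at read 7.30, 7.37 and 7.17 in the empty vector arrays and 4.68, 4.99 and 5.64 in the USP48-labelled arrays. The latter differed by up to 0.96 among themselves, the widest range of the 8 brightest probe sets, and the gap to the empty vector arrays, 1.53, was the narrowest. The difference was −2.18 (SE 0.20), 4.52-fold lower, and −2.44 without USP48-labelled replicate 3. The probe sets 1556895_a_at and 1556894_at lay below the median of all 6 arrays, and both were at −0.05 with overlapping groups. The mean of the 3 gave −0.76. Dim probe sets can miss a change, so these values do not show that the transcript they read was unaltered.

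ABLIM1 had 2 probe sets, lowered by different amounts. On 200965_s_at the empty vector arrays read 7.66, 7.79 and 7.77 and the USP48-labelled arrays 5.20, 5.44 and 6.08. The groups lay 1.57 apart and the difference was −2.16 (SE 0.18), 4.48-fold lower. On 210461_s_at they read 6.47, 6.63 and 6.42 against 5.08, 5.21 and 5.47, lower in every USP48-labelled array by a difference of −1.25, 2.38-fold. The mean of both was −1.71.

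EEIG2 was read by 1 probe set, 226568_at, and had the smallest spread among the USP48-labelled arrays of the 8 brightest probe sets. The empty vector arrays were at 8.55, 8.52 and 8.38 and the USP48-labelled arrays at 6.30, 6.27 and 6.47 (SD 0.11). The groups lay 1.91 apart, and the difference was −2.14 (SE 0.10), 4.39-fold lower.

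The USP48-labelled arrays differed in the depth of the decrease. USP48-labelled replicate 3 was the highest of its group for 7 of the 8 brightest probe sets, MEOX1 being the exception, and the SD of the USP48-labelled arrays was larger than that of the empty vector arrays for the same number, 7. It exceeded the mean of replicates 1 and 2 by 0.80 for NT5DC2, 0.78 for REEP1 and 0.76 for ABLIM1, and by 0.19 for EEIG2. The mean of the 8 genes, set to the empty vector mean, was −2.50 and −2.38 in replicates 1 and 2 and −1.98 in replicate 3. The same array had the lowest GAPDH 5′ minus 3′ difference, −1.31, and the part of this in the result was not tested. The decreases were as large or larger without it for 7 of the 8 genes, at −2.85 to −2.20, and MEOX1 was at −2.19. Over all 377 genes called at least 2-fold lower, replicate 3 was the highest USP48-labelled array for 267 genes, 70.8%.

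**Figure D2:**
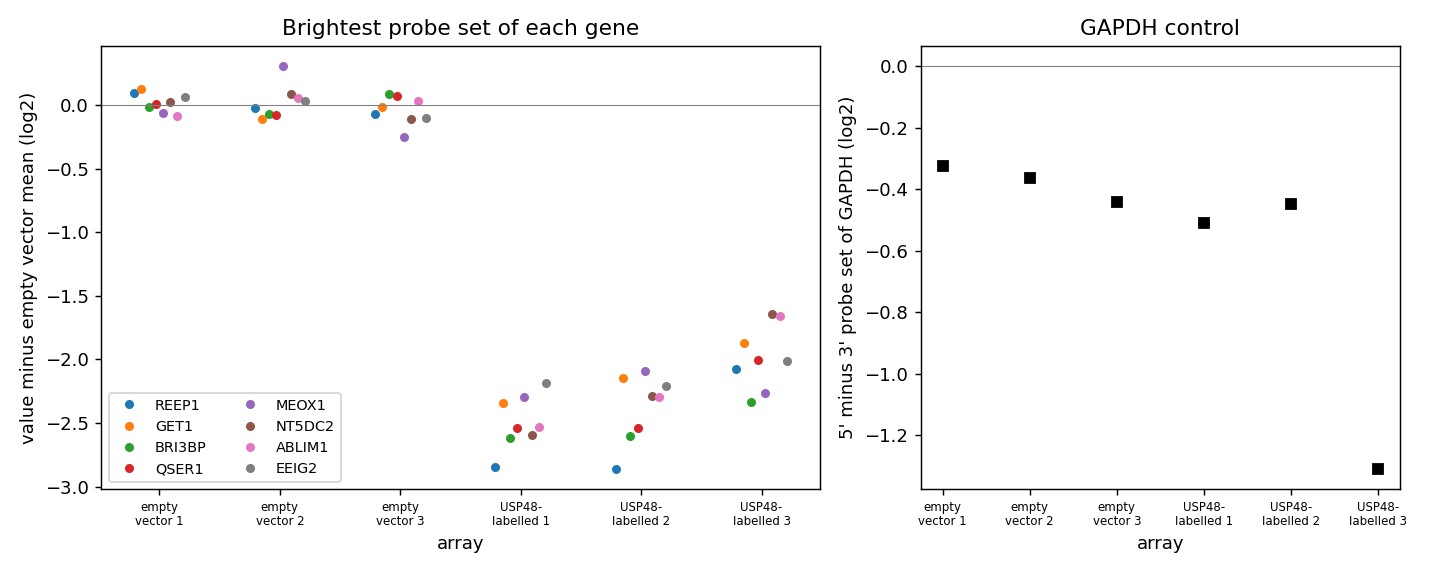
Left, the brightest probe set of each of the 8 genes as its log2 value minus the empty vector mean (vertical axis) on each of 6 arrays (horizontal axis), with points shifted sideways for visibility. Right, the log2 difference between the 5′ and the 3′ GAPDH probe set on the same arrays, where USP48-labelled replicate 3 is lowest at −1.31.

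Genes related to these 8 did not choose them and could be tested. The lists were, however, drawn up with earlier results of these data known, so the tests are not fully independent of the data. Paralogs and functional partners were listed for each gene, 78 in all, of which 72 were measured. Of those 72, limma called 15 higher and 12 lower at an adjusted p under 0.05, that is 20.8% and 16.7%, against 15.7% and 14.1% of all genes and 29.8% in either direction. Their median difference was 0.09. Of 13 measured paralogs, 4 fell and 1 rose, and 8 did not pass. The listed relatives thus moved in both directions, and 37.5% of the 72 were called. Single lists ran from 0% to 57.1% called, and 30.8% of the paralogs fell. These lists are small, and no list was tested as a set. With arrays scaled on the hybridization controls, which lowers every difference by 0.29, 6 of the 72 were higher and 30 lower, so which direction prevails turns on that scaling.

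Among genes that shape the ER, around REEP1, 5 of 15 fell and 1 rose, with a median of −0.08. That is 33.3% and 6.67%, against 14.1% and 15.7% of all genes. The paralogs REEP3 and REEP6 fell, REEP3 from 6.73 ± 0.20 to 5.33 ± 0.15 (SD, n = 3 each; −1.40, limma adjusted p = 1.3e-05) and REEP6 from 8.07 ± 0.15 to 7.25 ± 0.16 (−0.82, limma adjusted p = 0.00027). The dimmer REEP3 probe set was at −0.24 without passing, and the average of both was −0.82 (adjusted p = 0.00028). REEP4 at −0.26 passed narrowly (limma adjusted p = 0.043) and lost its call whichever array was left out (adjusted p = 0.051 to 0.162). REEP2 at −0.01 and REEP5 at 0.15 did not pass, though REEP5 did with an intensity trend and a robust prior (adjusted p = 0.048) and was called lower with its probe sets averaged (−0.53, adjusted p = 0.00099). SPAST, which severs microtubules and is also mutated in spastic paraplegia, was lower by a log2 difference of −1.16 (limma adjusted p = 3.5e-05), and LNPK, which stabilises ER junctions, fell by 0.98 (limma adjusted p = 2.9e-05). All 3 LNPK probe sets were called lower, at −0.98 to −1.37, and all lay below the array medians in the USP48-labelled arrays, while the dimmer SPAST probe set was at −0.06 and the average of both SPAST probe sets at −0.61. ATL3, a GTPase that fuses ER tubules, rose by 0.41 on its brightest probe set (limma adjusted p = 0.0059) and was called lower with its 3 averaged (−0.81). Under the control scaling ATL3 lost its call (0.12, adjusted p = 0.41) and REEP2 was called lower (−0.31, adjusted p = 0.037).

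Of the partners of GET1 in inserting tail-anchored proteins, 0 of 5 were called by limma, against 29.8% of all genes. Of these 5, 1 had an unadjusted p under 0.05 and 0 were called with an intensity trend and a robust prior. SGTA, the chaperone that first takes up such proteins, had the largest difference, 0.23 (limma adjusted p = 0.075), and passed after quantile normalization (0.30, adjusted p = 0.016) and without the dimmest genes (adjusted p = 0.043). Across these partners the median difference was −0.03, and CAMLG, which forms the receptor with GET1, was at 0.12. BRI3, the partner that gives BRI3BP its name, rose by 0.39 from 9.81 ± 0.05 to 10.20 ± 0.03 (SD, n = 3 each; limma adjusted p = 0.0043), and TMEM109, a relative of BRI3BP, was at 0.06 without passing. Under the control scaling BRI3 was at 0.09 (adjusted p = 0.50).

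Of 9 genes of DNA methylation around QSER1, 3 fell and 0 rose, with a median of −0.16. That is 33.3% and 0%, against 14.1% and 15.7% of all genes. DNMT3B, which sets new methylation, fell from 6.65 ± 0.06 to 5.95 ± 0.04 (SD, n = 3 each; −0.70, limma adjusted p = 0.00010). DNMT1, which copies methylation after replication, fell by 0.47 (limma adjusted p = 0.0012). The demethylase TET3 was at −0.50 on its brightest probe set (limma adjusted p = 0.014), but did not pass without USP48-labelled replicate 1 or 2 or empty vector replicate 3 (adjusted p = 0.055 to 0.058) or with its probe sets averaged (−0.12, adjusted p = 0.28). PRR12, which shares a domain with QSER1, was at −0.16 and did not pass, and was called lower under the control scaling (−0.46, adjusted p = 0.0033). TET1, with which QSER1 works, was at 0.12 without passing (limma adjusted p = 0.38). It lay below the median of every array, with means of 2.21 and 2.33. Its missing call does not show that it was unaltered. Around MEOX1, 0 of 8 somite transcription factors were called by limma, against 29.8% of all genes. Of these 8, 1 had an unadjusted p under 0.05 and 0 were called with an intensity trend and a robust prior. TCF15 was at −0.27 (limma adjusted p = 0.060) and passed without USP48-labelled replicate 3 (−0.35, adjusted p = 0.018), without the dimmest genes (adjusted p = 0.035) and under the control scaling (−0.56). The paralog MEOX2 was at −0.10, below the median of every array in both groups (means 1.49 and 1.39), and was called lower under the control scaling (−0.40, adjusted p = 0.013). The empty vector means of PAX1, PAX9, PAX3, TBX18 and NKX3-2, at 3.03 to 3.64, also lay below the array medians. A missing call for these dim genes does not show that they were unaltered.

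Around NT5DC2, 3 of 10 nucleotidase genes rose and 1 fell, 30% and 10%, against 15.7% and 14.1% of all genes. NT5E, the surface enzyme CD73 that makes adenosine, rose from 6.15 ± 0.15 to 7.96 ± 0.25 (SD, n = 3 each), a difference of 1.81 and 3.51-fold (limma adjusted p = 4.6e-06). Its 4 probe sets all rose, at 0.80 to 1.94. NT5C3A, a cytosolic pyrimidine nucleotidase, rose by 1.20 (limma adjusted p = 1.1e-05) and NT5C2 by 0.45 (limma adjusted p = 0.0014), the latter at 0.27 with its probe sets averaged and at 0.16 under the control scaling (adjusted p = 0.018 and 0.25). The 3 listed paralogs of NT5DC2 did not pass on their brightest probe sets, with NT5DC1 at −0.02, NT5DC3 at 0.26 and NT5DC4 at 0.17. NT5DC1 was called lower with its 4 probe sets averaged (−0.34, adjusted p = 0.0125) and under the control scaling (−0.31, adjusted p = 0.028). Its probe set 223178_s_at was called lower at −0.86 (limma adjusted p = 0.00033 over all probe sets), and its others were not called. NT5DC4 lay below the median of every array, so its missing call does not show that it was unaltered. NT5DC3 passed without USP48-labelled replicate 1 (0.37, adjusted p = 0.033).

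Of 14 actin-binding and LIM domain genes around ABLIM1, 6 rose and 2 fell, a median of 0.16. That is 42.9% and 14.3%, against 15.7% and 14.1% of all genes. Its paralog ABLIM3 rose from 4.36 ± 0.20 to 4.88 ± 0.11 (SD, n = 3 each; 0.53, limma adjusted p = 0.0051), and did not pass under the control scaling (0.23, adjusted p = 0.12). PDLIM5, an adaptor of the actin cytoskeleton, rose by 1.75 (limma adjusted p = 4.4e-07) and LIMA1, which bundles actin filaments, by 1.23 (limma adjusted p = 5.8e-06). LPP, a protein of focal adhesions, fell from 6.97 ± 0.04 to 5.04 ± 0.54 (−1.93, limma adjusted p = 6.3e-05). Averaged over all their probe sets, PDLIM5 was at 0.61 over 10, 1 of which was called lower at −0.44, and LPP at −0.80 over 8. Of 9 genes around EEIG2, 4 rose and 1 fell, 44.4% and 11.1%, against the same shares of all genes. The 1 that fell was its paralog EEIG1, from 7.03 ± 0.14 to 6.51 ± 0.06 (SD, n = 3 each; −0.52, limma adjusted p = 0.0019); its dimmer probe set was at −0.04 and the average of both at −0.28. Among those that rose, PLCG2, a phospholipase, was at 0.57, TNFRSF11A, the receptor RANK, at 0.33 and the adaptor GAB2 at 0.30 (limma adjusted p = 0.0041, 0.015 and 0.026). None of these 3 passed under the control scaling (adjusted p = 0.134, 0.79 and 0.96). PLCG2 also lost its call with its probe sets averaged (0.19, adjusted p = 0.1335), and TNFRSF11A turned to −0.22 without passing (adjusted p = 0.0695). The brightest TNFRSF11A probe set read the same value, 4.34, on all 3 empty vector arrays. Its other probe set, 238846_at, was called lower at −0.78 (limma adjusted p = 0.0015 over all probe sets). GAB2 did not pass without empty vector replicate 1 or 3 or USP48-labelled replicate 1 or 2 (adjusted p = 0.057 to 0.104), nor TNFRSF11A without USP48-labelled replicate 2 (adjusted p = 0.0501).

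**Figure D3:**
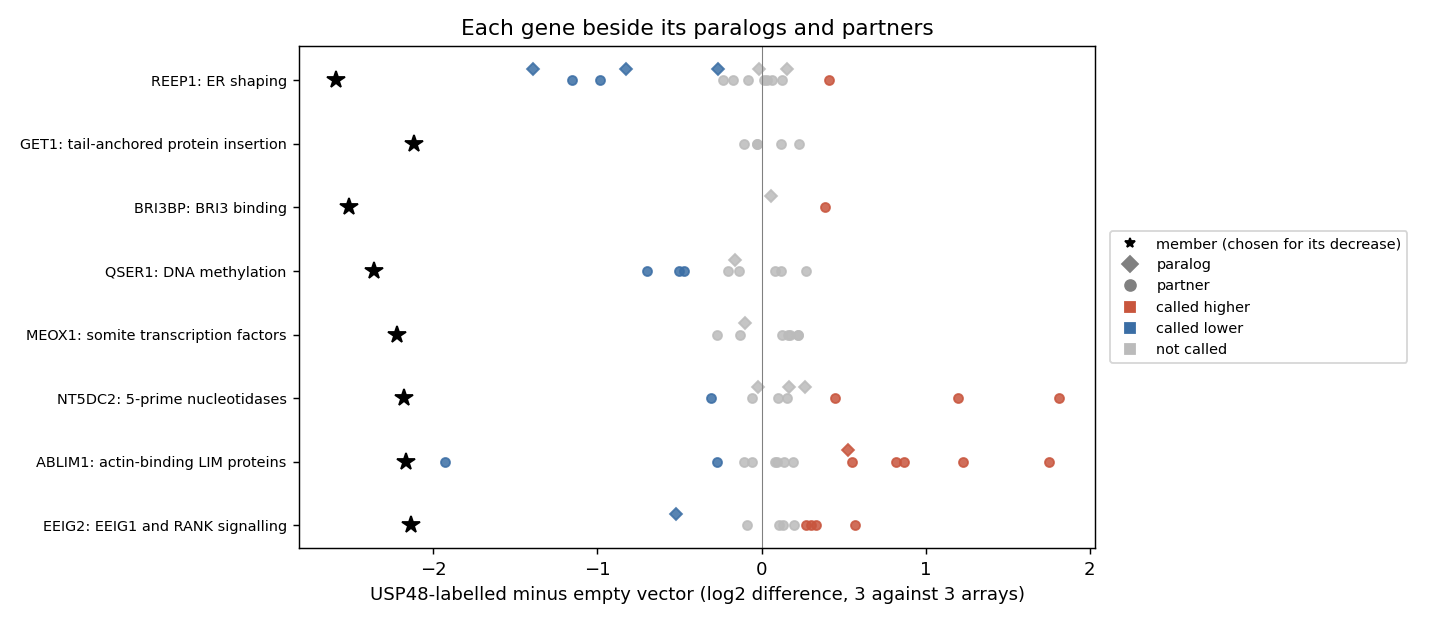
Log2 difference between the USP48-labelled and the empty vector arrays (horizontal axis) for the brightest probe set of each of the 8 genes (stars) and of their 72 measured paralogs (diamonds) and partners (circles), 1 row per list (vertical axis). The 8 stars lie between −2.59 and −2.12 by choice, and the tested genes range from LPP at −1.93 to NT5E at 1.81, coloured by the limma call.

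Probe sets of 1 gene with unlike differences, as for QSER1, also occurred among tested relatives. For NT5DC2 the unlike probe sets were dim, so they do not show a disagreement. Of 44 paralogs and partners with several probe sets, 4 had probe sets called in both directions, 9.09%, against 5.56% of 10523 such genes on the array. These were ATL3, LPP, PDLIM5 and TNFRSF11A. Over all 174 probe sets of the relatives, 30 rose and 23 fell, and 24.3% of all probe sets were called in either direction. For ATL3, probe set 224893_at fell from 7.94 to 5.36 (−2.58, limma adjusted p = 2.2e-06 over all probe sets), while 223452_s_at rose from 8.12 to 8.53. For LPP, 224811_at, 241879_at and 202822_at were lower by −2.44, −2.41 and −1.93 while 202821_s_at was higher by 0.71 (limma adjusted p = 0.00073 for the last). REEP5, whose bright probe set did not pass at 0.15, had another, 208873_s_at, that fell from 6.27, 6.15 and 6.06 to 4.79, 4.90 and 5.17 (−1.21, limma adjusted p = 3.5e-05). RTN3, a reticulon chosen here after its values were seen, was at 0.01 on 224564_s_at and at −1.31 on 219549_s_at (limma adjusted p = 3.9e-06). Over the whole array, 39 genes with several probe sets had 1 that was at least 4-fold lower, and 34 of these, 87.2%, had another that was lowered by less than 0.5 or not lowered. QSER1 and NT5DC2 were among these, and REEP1 and ABLIM1 were not. No filter on dim values was applied to this count. Dim probe sets can miss a change, so the share does not show how often transcripts of 1 gene differed.

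**Figure D4:**
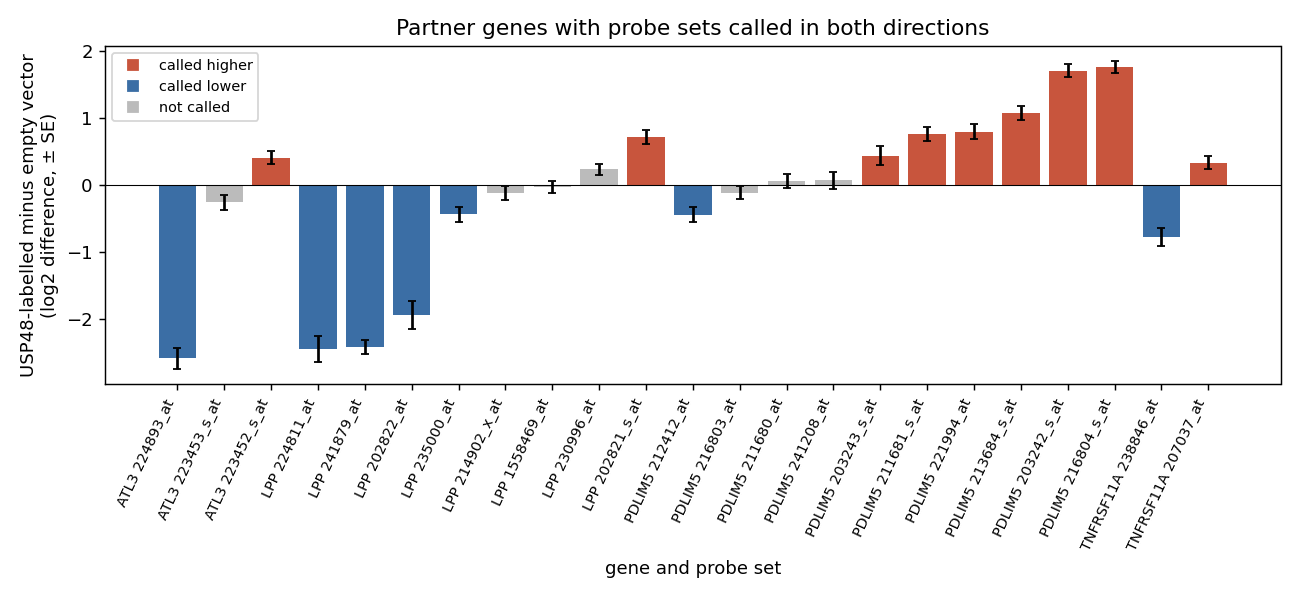
Log2 difference with its standard error (vertical axis, 3 against 3 arrays) of every probe set (horizontal axis) of the 4 related genes with probe sets called in both directions. Bars are coloured by the limma call over all probe sets, and those of ATL3 run from −2.58 to 0.41 and those of LPP from −2.44 to 0.71.

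The genes with the profile most like the mean of the 8, by Euclidean distance over the 6 arrays after setting each to its empty vector mean, were RAB4A, OTUD6B-AS1, CUL3, MBNL3 and IFT80, at distances of 0.32 to 0.37. The 8 genes themselves lay at 0.23 for QSER1 to 0.61 for REEP1. RAB4A, a small GTPase of endosome recycling, read 8.08, 8.03 and 8.02 in the empty vector arrays and 5.81, 5.77 and 6.20 in the USP48-labelled arrays. CUL3, the scaffold of a family of ubiquitin ligases, read 8.51, 8.40 and 8.44 against 6.16, 6.20 and 6.70. In both, USP48-labelled replicate 3 was again the highest of its group. The likeness was measured on the values that chose the genes and is a description of 6 arrays.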

How the data were processed

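The deposited table holds 1 log2 value per probe set and array. RMA is the method that the submitters' processing notes name for it; its version and background correction are not stated in the labels. RMA equalises the arrays, so a change in total RNA per cell cannot be seen. The values ran from 0.190 to 13.2, and array medians from 3.75 to 3.79. The small number of arrays, 3 per group, limits the precision. Of 54675 probe sets, 41091 named 1 symbol, 1801 several, 11721 none and 62 were controls. Of those with 1 symbol, 41037 matched RefSeq GRCh38.p14 with 0 symbols altered.

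A gene's value is that of its probe set with the highest mean over the 6 arrays. Differences between groups came from limma 3.58.1 under R 4.3.3, using lmFit and eBayes. Its two-sided p-values were adjusted by Benjamini-Hochberg across every gene, or every probe set, with a threshold of 0.05 and no filter on dim values. The code was tested on simulated data. For single values per array the test was an exact permutation of the labels, two-sided (scipy 1.17.1). Figures were drawn with matplotlib 3.10.9.

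The 8 genes and the lists were chosen with earlier results of these data known. The text names the 8 genes, every measured paralog, USP48, up to 3 called partners of each list with the largest absolute difference (the largest where none passed), and the 5 genes nearest to the mean profile; other genes named were chosen after their values were seen. ATL2, ARL6IP1, UBL4A, UNCX, NT5C1B and HNF4A were among the listed genes not analysed here. The replicate numbers of the titles pair no samples by the labels. The alternatives were other normalizations, the mean of all probe sets, a replicate block, another variance prior, a filter on dim genes, a stricter threshold and leaving out each array.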

Additional observations from a re-analysis of the deposited data

How the results depend on the processing

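The median difference of the 8 genes, −2.20, was −2.16 after quantile normalization, −2.13 with probe sets averaged and −2.49 under scaling to the hybridization controls, and ran from −2.43 to −2.14 when each array was left out. With that scaling, 6 listed relatives were higher and 30 lower (15 and 12 as deposited), of their 174 probe sets 17 were higher and 66 lower (30 and 23), and of all genes 957 were higher and 7495 lower (3103 and 2794). At an adjusted p under 0.01, 1936 of all genes were higher. The mean of all probe sets turned REEP5 to −0.53, ATL3 to −0.81 and TNFRSF11A to −0.22. Of the 31 named relatives, 14 kept their direction and their side of the threshold under every alternative run. Samples with the same replicate number deviated together weakly at most. The correlations of their deviations from the group means over genes were 0.004, 0.166 and 0.015. The 0.166 of replicates 2 was the highest of any pair, and pairs with different numbers ran from −0.120 to 0.111. Array 1 of the USP48-labelled group correlated best with empty vector array 3, at 0.111. With the number as a replicate block, 14 relatives were higher and 11 lower, and 3038 and 2786 of all genes. The small number of arrays, and dim values with no detection calls, limit what can be read from MEOX1 and the dim NT5DC2 probe sets.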

Other observations

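The protein-coding genes next to the 8 on the chromosome, the closest with a probe set on either side by RefSeq start, were looked at after seeing the data. Of the 16 neighbours, limma called 5 higher and 3 lower, and 8 did not pass, against 29.8% of all genes called in either direction; their median difference was 0.04. DEPDC7, the neighbour of QSER1, rose from 7.05 ± 0.22 to 8.95 ± 0.23 (SD, n = 3 each; 1.90, limma adjusted p = 4.8e-06), while PRRG4 on the other side of QSER1 fell by 0.43 (limma adjusted p = 0.0042). HENMT1, which methylates small RNAs and lies next to EEIG2, fell from 8.40 ± 0.10 to 7.57 ± 0.11 (−0.83, limma adjusted p = 8.5e-05), and NBPF4 on the other side rose by 0.44 (limma adjusted p = 0.011). Both neighbours of REEP1 rose, MRPL35, a mitochondrial ribosomal protein, by 0.31 and the histone demethylase KDM3A by 0.33 (limma adjusted p = 0.039 and 0.0088). ETV4 next to MEOX1 was called higher at 0.57 and HMGN1 next to GET1 lower at −0.29 (limma adjusted p = 0.00035 and 0.021). DHX37 and AACS, on either side of BRI3BP, were at 0.14 and −0.18 and did not pass.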
